A study of Mus musculus with 27 samples.

Results

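A group of 10 lipid genes around Apoc1 were followed across monocytes, macrophages and type 1 conventional dendritic cells (cDC1s) of the inflamed mouse colon. They are Apoc1, Apoe, Apoc2, Abca1, Abcg1, Lpl, Fabp3, Fabp4, Fabp5 and Pltp, out of 30869 gene symbols on the array, and they are read by 14 of its 45281 probes. Members were found by their symbol in the deposited intensity table. Apoc1 was chosen by its difference between genotypes in monocytes and in macrophages, and the other genes because they also handle lipoproteins or fatty acids. For that reason the genotype differences in monocytes and macrophages are given below as descriptions only, and the counts past the thresholds in them are printed beside the share over all genes without being read as a result. The differences between cell types, averaged over genotypes, and the genotype difference in cDC1s did not enter the choice of Apoc1 and were tested. Earlier results of these data were known when the members were chosen, and all comparisons share the same estimate of spread per probe.

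All mice drank 2% dextran sodium sulphate (DSS), which injures the colon epithelium and causes colitis. They were wild type (WT) or lacked Mbd2 in every cell from birth (Mbd2-/-, labelled Mbd2KO), with no other allele or agent, on a C57BL/6 background and as littermates where possible. No untreated colon was measured, so every value is a level during colitis. Cells were sorted from the lamina propria, the connective tissue under the epithelium, and each array held RNA from 1 or more pooled mice. There were 5 WT and 5 Mbd2KO monocyte arrays, 5 WT and 5 Mbd2KO macrophage arrays, and 2 WT and 3 Mbd2KO cDC1 arrays. Monocytes were gated as CD11b+ Ly6C+ cells, macrophages as CD11b+ F4/80+ MHC-II+ Ly6C- cells, and cDC1s (labelled CD11bnegDC) as CD11b- CD11c+ CD103+ cells. Arrays carry the number given in their label.

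Apolipoproteins are the protein coat of lipoprotein particles, which carry cholesterol and triglyceride between cells. Macrophages make several of them and use the transporters Abca1 and Abcg1 to pass surplus cholesterol on to such particles. The oxysterol sensors of the LXR family switch on many of these genes together, among them a cluster in which Apoe, Apoc1, Apoc4 and Apoc2 lie side by side. Mbd2 binds methylated CpG dinucleotides and recruits repressor complexes to them.

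Values are log2 intensities after background correction and quantile normalization over the 25 colon arrays. A probe counts as above background on an array where its detection p-value is under 0.05. A gene was called changed where its adjusted p was under 0.05 and its log2 difference at least 1, which is a change of 2-fold. The highest value any probe reached was 14.14, so no member sat at the ceiling. Mean raw intensity per array ran from 172 to 353, and 16024 to 18608 probes were above background per array. The array's Mbd2 probe was above background on none of the 25 arrays, with a smallest detection p of 0.0566, so it gives no check of the genotype labels. The sorted cells carried their own markers. Of 12 macrophage markers, 8 were called higher in macrophages than in monocytes and all 12 were called lower in cDC1s than in macrophages. Of the 6 monocyte markers tested, 4 were called lower in macrophages, but Ccr2 was above background on only 1 WT monocyte array and 2 Mbd2KO macrophage arrays. Of the 8 cDC1 markers tested against macrophages, 7 were called higher in cDC1s, while Flt3, at a mean of 4.54 in WT cDC1s, was near background. Markers of other cells were present too: the summed linear signal of 9 epithelial markers was between 4425 and 16914 on every array, and that of 7 fibroblast markers between 799 and 4428. Their part in the values below was not tested. In sorted populations, more RNA per cell and more cells that express a gene cannot be told apart.

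Apoc1, which encodes a small apolipoprotein that slows lipoprotein uptake and lipase action, was the member with the widest range. In WT monocytes 1 to 5 its log2 intensity was 8.04, 8.08, 7.93, 7.77 and 7.48. In Mbd2KO monocytes 6 to 10 it was 10.01, 9.69, 10.25, 10.10 and 9.49, so that the lowest Mbd2KO array lay above the highest WT array. Macrophages repeated this separation at a lower level. WT macrophages 11 to 15 read 5.76, 6.02, 5.58, 5.82 and 5.30. Mbd2KO macrophages 16 to 20 read 8.39, 8.12, 8.18, 7.60 and 7.65. Of all genes tested, 5.12% did not overlap between genotypes in monocytes and 5.22% in macrophages. In cDC1s the gene was at or near background: WT arrays 23 and 26 read 4.29 and 4.28 and were not above background, whereas Mbd2KO arrays 27, 28 and 30 read 5.19, 4.76 and 4.91 and all were.

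**Figure D1:**
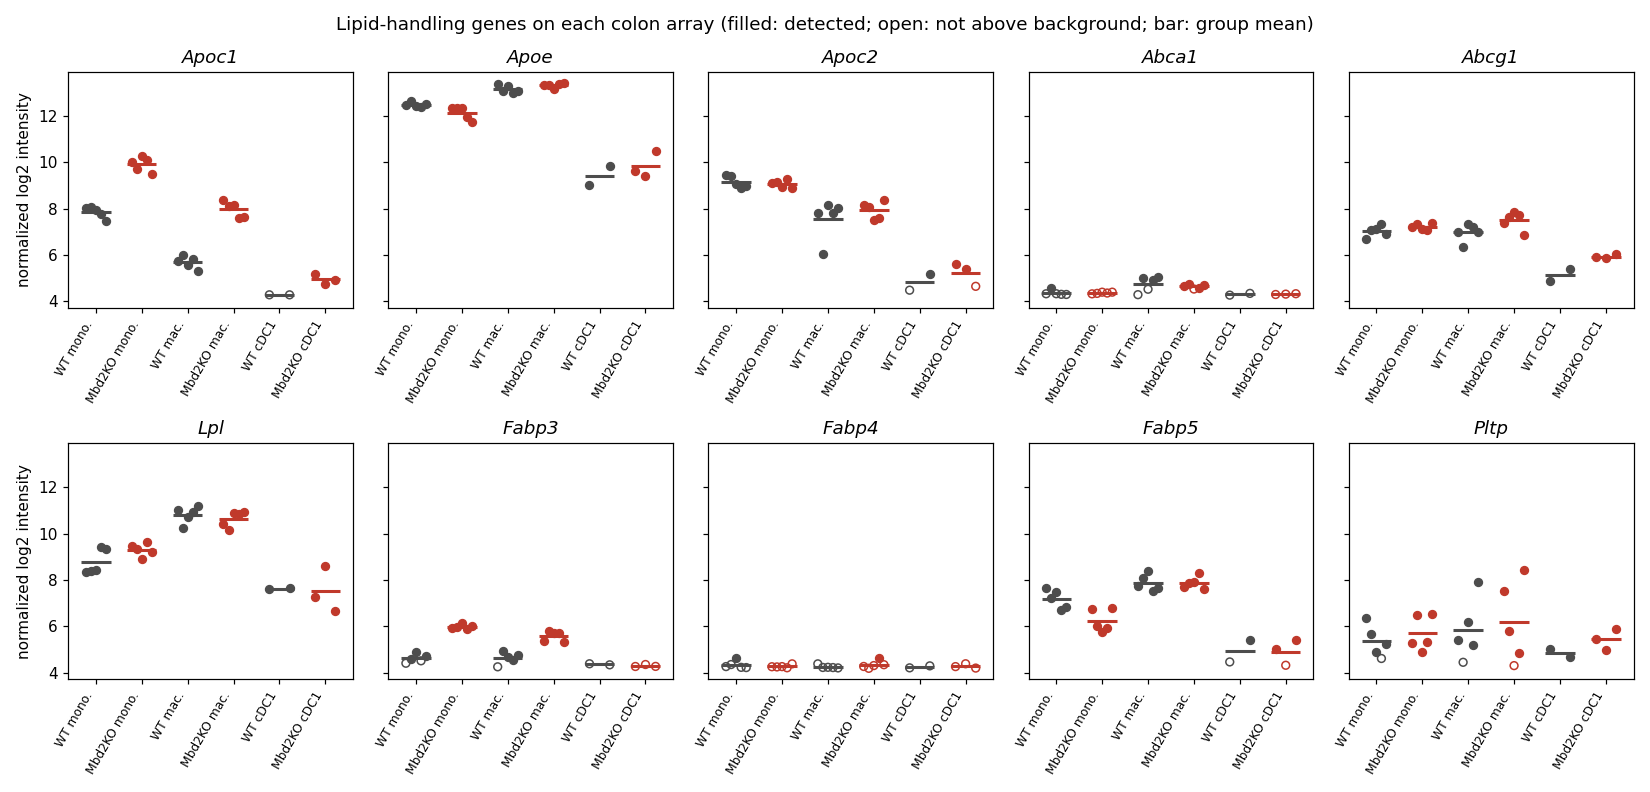
Each panel shows 1 gene on the 25 colon arrays, with the normalized log2 intensity of its representative probe on the vertical axis and the 6 groups along the horizontal axis; filled points are arrays above background, open points are not, and bars are group means. The Mbd2KO points of Apoc1 and Fabp3 stand clear of the WT points in monocytes and in macrophages, and Apoe, Lpl and Fabp5 are highest in macrophages.

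By group mean, Apoc1 ran from Mbd2KO monocytes (9.91 ± 0.31, SD, n = 5) through Mbd2KO macrophages (7.99 ± 0.34, n = 5) and WT monocytes (7.86 ± 0.25, n = 5) to WT macrophages (5.70 ± 0.27, n = 5) and cDC1s. The middle pair overlapped: Mbd2KO macrophages spanned 7.60 to 8.39 and WT monocytes 7.48 to 8.08. No other neighbours in this order overlapped. The gap between genotypes was 2.05 (SE 0.17) in monocytes, a 4.14-fold difference, and 2.29 (SE 0.17) in macrophages, a 4.91-fold difference. Whether the gap differed between the cell types was not tested, since both contrasts were used to choose the gene. The second Apoc1 probe gave gaps of 1.83 and 1.82, and its values correlated with those of the first at r = 0.99 over the 25 arrays. Within the position of arrays in the deposited table, taken in runs of 6 columns, the gap was 1.77 and 2.36 in monocytes and 1.84 and 2.67 in macrophages. The table and the labels do not name the chip, and monocyte and macrophage arrays never shared a run of 6. If these runs are chips, chip and cell type cannot be told apart for monocytes against macrophages. WT and Mbd2KO cDC1 arrays shared no run either, so chip and genotype could not be told apart in cDC1s.

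Between cell types, with both genotypes weighted alike, Apoc1 was lower in macrophages than in monocytes, with a log2 difference of -2.04 (SE 0.12), or 4.12-fold, with a limma adjusted p of 2.16e-11. The second probe gave -1.99. The direction was the same within WT arrays, at -2.16, and within Mbd2KO arrays, at -1.92. In cDC1s it was lower still, by a difference of -2.22 from macrophages (adjusted p = 4.03e-11) and of -4.27 from monocytes (adjusted p = 6.51e-16), with 3 of 5 cDC1 arrays above background. The second probe was above background on no cDC1 array, which puts it at least 2.83-fold lower than in macrophages and at least 11.3-fold lower than in monocytes.

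Cell type markers were set beside the Apoc1 gap. The summed signal of 7 monocyte markers was 5044 to 7816 in WT macrophages and 6851 to 9289 in Mbd2KO macrophages, against 15970 to 28225 in monocytes, so the macrophage ranges overlapped and both lay below every monocyte array. That of 6 neutrophil markers was 3135 to 9048 in WT and 7322 to 9578 in Mbd2KO monocytes, and 1573 to 3263 in WT and 2038 to 6659 in Mbd2KO macrophages. These ranges overlapped between genotypes in both cell types. The 5 plasma and B cell markers summed to 947 to 1359 in WT monocytes and 550 to 899 in Mbd2KO monocytes, which did not overlap. In macrophages their sums did overlap, at 960 to 1692 in WT and 615 to 1402 in Mbd2KO arrays. Macrophage markers overlapped between genotypes in both cell types. The part of these markers in the Apoc1 values was not tested.

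Among the 10 members, 8 passed the filter on dim probes in monocytes and 2 (Apoc1 and Fabp3) lay past both thresholds as higher in Mbd2KO, beside 0.309% of all genes called higher and 0.142% lower. For macrophages, 9 passed the filter and 1 (Apoc1) lay past both, where 1.13% of genes were called higher and 0.152% lower. Nothing is read from these counts, because this contrast selected Apoc1. The median difference over the members past the filter was 0.27 in monocytes and 0.36 in macrophages, against -0.03 and -0.08 over all genes tested. These medians include Apoc1, and nothing is read from them either.

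Fabp3, a cytosolic fatty acid binding protein best known from heart and skeletal muscle, was the other member with a clear genotype gap. WT monocytes 1 to 5 read 4.41, 4.57, 4.88, 4.51 and 4.74, with 3 of 5 above background. Mbd2KO monocytes 6 to 10 read 5.91, 5.99, 6.13, 5.90 and 6.02. The Mbd2KO arrays were tightly grouped and all lay above the WT arrays. WT macrophages 11 to 15 read 4.25, 4.95, 4.67, 4.56 and 4.76, and Mbd2KO macrophages 16 to 20 read 5.35, 5.80, 5.73, 5.69 and 5.31, again without overlap. The gap was 1.37 (SE 0.11) in monocytes and 0.94 (SE 0.11) in macrophages, the latter just under the limit of 1. WT levels lay close to background, so the size of the Fabp3 gap depends on how background is treated. Without background correction it was 0.51 and 0.33. No cDC1 array of either genotype was above background for Fabp3, which puts cDC1s at least 1.62-fold below monocytes and at least 1.41-fold below macrophages. Fabp3 entered these comparisons through the monocyte and macrophage arrays alone, and the bounds average both genotypes. Within WT arrays the cDC1 difference was -0.26 from monocytes and -0.28 from macrophages. Within Mbd2KO arrays it was -1.69 and -1.28. Across both genotypes Fabp3 did not differ between macrophages and monocytes past the threshold (-0.20, 95% interval -0.37 to -0.03, adjusted p = 0.0554).

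Sequence upstream of the start site was available from RefSeq (GRCm38.p6) for 5 of the 10 genes: Apoe, Apoc2, Abca1, Fabp3 and Pltp. Apoc1, Abcg1, Lpl, Fabp4 and Fabp5 had no entry. The arrays did not measure methylation, and the windows are given because Mbd2 reads methylated CpG. Shown are the 250 bases before the start of Fabp3, which had a genotype gap, and of Apoc2 and Apoe, which lie near Apoc1 and had none of that size. The Fabp3 window is chr4:130308488-130308737 on the plus strand, the Apoc2 window chr7:19677942-19678191 on the minus strand, and the Apoe window, at the most upstream of 3 listed starts, chr7:19699189-19699438 on the minus strand. Each is written 5′ to 3′ with every CpG in capitals.
Fabp3: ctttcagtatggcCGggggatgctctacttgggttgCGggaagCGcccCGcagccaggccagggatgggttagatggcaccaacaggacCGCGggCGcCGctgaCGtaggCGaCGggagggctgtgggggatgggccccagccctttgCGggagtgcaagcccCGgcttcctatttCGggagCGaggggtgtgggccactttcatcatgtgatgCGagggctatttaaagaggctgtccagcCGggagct
Apoc2: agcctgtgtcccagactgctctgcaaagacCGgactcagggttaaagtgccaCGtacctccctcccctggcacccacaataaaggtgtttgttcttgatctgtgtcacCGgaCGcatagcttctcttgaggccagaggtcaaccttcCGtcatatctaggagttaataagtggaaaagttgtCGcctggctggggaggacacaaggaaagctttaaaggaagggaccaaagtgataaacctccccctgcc
Apoe: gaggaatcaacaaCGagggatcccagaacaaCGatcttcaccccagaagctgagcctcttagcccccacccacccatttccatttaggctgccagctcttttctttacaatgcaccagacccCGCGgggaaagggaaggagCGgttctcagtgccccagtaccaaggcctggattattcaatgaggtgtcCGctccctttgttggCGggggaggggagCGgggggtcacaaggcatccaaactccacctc
The motif counted was CG, which reads the same on both strands. The Fabp3 window holds 17 CpGs, and 23.5% of 32851 promoter windows of this length hold as many or more. The Apoc2 window holds 6, reached by 50.4% of windows, and the Apoe window holds 8, reached by 43% of windows. The Abca1 window holds 20, reached by 17.9% of windows, and the Pltp window 9, reached by 40.3%. Between genotypes Abca1, near background, differed by -0.01 in monocytes, where it was not tested, and by -0.11 in macrophages. Pltp differed by 0.36 in both. The windows at the other listed Apoe starts hold 9 and 10. These counts are a description of the reference sequence.

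Apoe and Apoc2 lie near Apoc1 on chromosome 7 and did not share its genotype gap. Apoe, the ligand by which remnant particles are taken up, separated the genotypes only slightly. WT monocytes 1 to 5 read 12.47, 12.64, 12.42, 12.38 and 12.50, and Mbd2KO monocytes 6 to 10 read 12.33, 12.35, 12.34, 11.95 and 11.73. Here the Mbd2KO arrays lay below the WT arrays, with a mean difference of -0.34 (SE 0.17), and within the runs of 6 columns the difference was -0.67 and -0.10. In macrophages Apoe read 13.38, 13.07, 13.28, 12.98 and 13.08 in WT arrays 11 to 15 and 13.32, 13.33, 13.18, 13.38 and 13.44 in Mbd2KO arrays 16 to 20, with overlapping ranges and a difference of 0.17 (SE 0.17).

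Apoc2, the activator that lipoprotein lipase needs, read 9.46, 9.42, 9.05, 8.89 and 8.98 in WT monocytes 1 to 5 and 9.10, 9.16, 8.92, 9.27 and 8.87 in Mbd2KO monocytes 6 to 10. These overlapped almost wholly, with a difference of -0.09 (SE 0.30). WT macrophages 11 to 15 read 7.81, 6.05, 8.15, 7.83 and 8.01 and Mbd2KO macrophages 16 to 20 read 8.16, 8.07, 7.50, 7.62 and 8.38. WT macrophage array 12 stood apart at the low end, and on the second Apoc2 probe it was also the lowest WT macrophage array, at 5.04. The difference between genotypes in macrophages was 0.38 (SE 0.30), but -0.01 without array 12 and -0.02 on the second probe.

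Cell type moved the cluster genes in opposite ways. Apoe was 0.93 higher in macrophages than in monocytes (SE 0.12, adjusted p = 2.26e-06). Every macrophage array was above every monocyte array, yet the difference fell short of the limit of 1. Apoc2 was lower in macrophages (-1.36, SE 0.21, adjusted p = 2.39e-05), without overlap. Its second, dimmer probe gave -0.75, which passed the p threshold but not the size limit. Apoc4, which lies between Apoc2 and Apoc1, was called higher in macrophages, by 1.28 (adjusted p = 4.47e-07), with 6 of 10 monocyte arrays above background. Its difference fell under the size limit without background correction (0.53) and with an offset of 50 (0.75). So within this cluster Apoc1 and Apoc2 were lower in macrophages than in monocytes, and Apoc4 was higher.

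**Figure D2:**
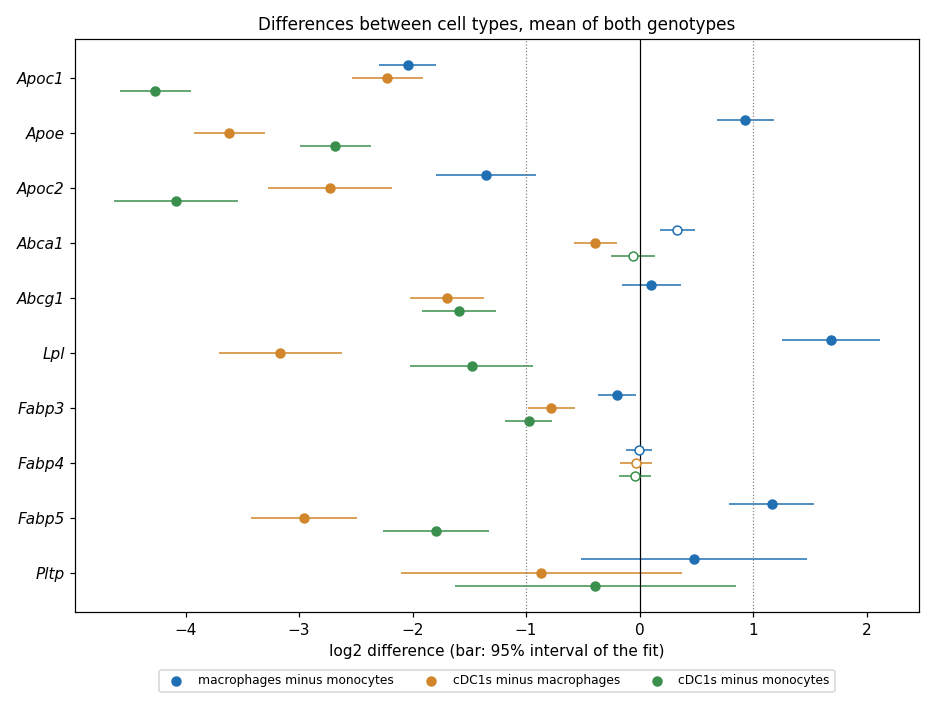
Points give the log2 difference between cell types for each gene, with the mean of both genotypes on each side, and bars give the 95% interval of the limma fit; open points were not tested because too few arrays were above background, and dotted lines mark differences of 1. Lpl and Fabp5 lie to the right in macrophages minus monocytes, Apoc1 and Apoc2 to the left, and every tested gene has a negative value in both comparisons with cDC1s.

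Lipoprotein lipase (Lpl), the enzyme that frees fatty acids from triglyceride-rich particles, was the member most raised in macrophages over monocytes. WT monocytes 1 to 5 read 8.32, 8.40, 8.41, 9.41 and 9.35, and Mbd2KO monocytes 6 to 10 read 9.48, 9.34, 8.90, 9.64 and 9.19. WT arrays 1 to 3 sat below all the other monocyte arrays, and these 3 stand in the same run of 6 columns. WT macrophages 11 to 15 read 11.03, 10.23, 10.70, 10.94 and 11.17, and Mbd2KO macrophages 16 to 20 read 10.41, 10.17, 10.88, 10.84 and 10.93. All macrophage arrays were above all monocyte arrays, and the difference was 1.68 (SE 0.21, adjusted p = 1.28e-06), a 3.22-fold difference. The genotype difference was 0.53 (SE 0.30) in monocytes, where it was 1.04 in the first run of 6 columns and -0.14 in the second, and -0.17 (SE 0.30) in macrophages. The other Lpl probe was above background on no array.

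Fabp5, the fatty acid binding protein of skin and many myeloid cells, read 7.65, 7.24, 7.48, 6.69 and 6.85 in WT monocytes 1 to 5 and 6.75, 6.01, 5.77, 5.91 and 6.77 in Mbd2KO monocytes 6 to 10. It was the only member whose mean was lower in Mbd2KO monocytes by more than 0.5, with a difference of -0.94 (SE 0.26) and ranges that overlapped slightly. It lay past both thresholds when 1 of WT arrays 4 and 5 or Mbd2KO arrays 6 and 10 was left out. In macrophages the genotypes were level: 7.75, 8.07, 8.40, 7.51 and 7.66 in WT arrays 11 to 15 and 7.70, 7.85, 7.89, 8.28 and 7.62 in Mbd2KO arrays 16 to 20, a difference of -0.01 (SE 0.26). Macrophages exceeded monocytes by 1.16 (SE 0.18, adjusted p = 2.28e-05). That call rests on the Mbd2KO arrays, where the difference was 1.63, since it was 0.70 in WT arrays alone, under the size limit. Whether the cell type difference itself differed between genotypes was not tested. A second Fabp5 probe was above background on no array.

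Abcg1, the transporter that loads cholesterol onto high density particles, showed no difference between macrophages and monocytes that passed the threshold (0.10, 95% interval -0.16 to 0.37, adjusted p = 0.557). WT monocytes spanned 6.71 to 7.36 and Mbd2KO monocytes 7.09 to 7.37, a difference of 0.19 (SE 0.18). WT macrophages spanned 6.36 to 7.35 and Mbd2KO macrophages 6.87 to 7.86, a difference of 0.51 (SE 0.18). The ranges overlapped in both cell types.

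The remaining members gave little signal or wide spread. Abca1, the transporter that starts cholesterol efflux to lipid-poor apolipoproteins, was above background on 8 of 25 arrays, namely 3 WT and 4 Mbd2KO macrophage arrays and 1 WT monocyte array, and never read above 5.05. It was above background on no cDC1 array, which puts it at least 1.07-fold lower there than in macrophages. It entered that comparison through the macrophage arrays alone, so its direction carries no weight. Fabp4, the fatty acid binding protein of adipocytes, was above background on 2 of 25 arrays and was tested in no comparison. The 6 adipocyte markers also stayed low, with a summed signal of 115 to 342, and the lipid droplet coat gene Plin1 was above background on no array. Pltp, a plasma protein that moves phospholipid between particles, spread more within groups than between them. WT macrophages 11 to 15 read 5.42, 4.45, 6.18, 5.18 and 7.90, and Mbd2KO macrophages 16 to 20 read 7.52, 5.81, 4.31, 4.87 and 8.45. High and low arrays occurred in both genotypes, and no Pltp comparison passed the threshold, with an SE of 0.48 for macrophages against monocytes.

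Counted over the members, 8 were tested between macrophages and monocytes. Lpl and Fabp5 were called higher in macrophages, where 2.61% of all genes tested were called higher, and Apoc1 and Apoc2 lower, where 2.24% were. In cDC1s against macrophages, 9 were tested and Apoc1, Apoe, Apoc2, Abcg1, Lpl and Fabp5 were called lower (6 of 9), beside 8.91% of all genes called lower and 6.91% higher. Against monocytes the same 6 genes, of 8 tested, were called lower in cDC1s, beside 9.00% of genes called lower and 7.84% higher. The median difference over tested members was -2.22 against macrophages and -1.69 against monocytes, where it was -0.04 and -0.03 over all genes tested. The members passed the filter on dim probes mostly through monocytes and macrophages, and the monocyte and macrophage arrays are separate sides of comparisons that share the cDC1 arrays.

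In cDC1s Apoe read 9.01 and 9.83 in WT arrays 23 and 26 and 9.62, 9.42 and 10.48 in Mbd2KO arrays 27, 28 and 30. All lay far below the macrophage arrays, with a mean difference of -3.61 (SE 0.15, adjusted p = 1.05e-14), a 12.2-fold difference. Lpl read 7.60 and 7.65 in WT and 7.25, 8.61 and 6.66 in Mbd2KO cDC1s, with a difference of -3.16 from macrophages (SE 0.26) and -1.48 from monocytes, where array 28 overlapped the monocyte range. Apoc2 differed by -2.73 from macrophages and by -4.09 from monocytes, with 3 of 5 cDC1 arrays above background. Fabp5 differed by -2.95 and -1.79, also with 3 of 5 arrays above background. Abcg1 differed by -1.70 from macrophages (adjusted p = 6.57e-09) and by -1.59 from monocytes, with all arrays above background. The cDC1 arrays differed among themselves in markers of other cells. Array 23, lowest for Apoe, had the highest T cell marker signal (2802, summed over 7 genes), followed by array 28 (2305). Array 30, highest for Apoe, had the lowest T cell marker signal (422) and the highest macrophage marker signal (6005, against 2680 to 4172 on the other cDC1 arrays and 46826 or more in macrophages). The part of these markers in the cDC1 values was not tested.

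Between genotypes in cDC1s, 7 members were tested and none was called, by limma at an adjusted p under 0.05, beside 0.800% of all genes called higher in Mbd2KO and 0.985% lower. Abcg1 came closest: WT arrays read 4.88 and 5.40 and Mbd2KO arrays 5.92, 5.86 and 6.03, a difference of 0.79 (95% interval 0.26 to 1.33, adjusted p = 0.0583). The groups did not overlap, but in this comparison of 2 and 3 arrays 32% of all genes tested did not overlap. WT and Mbd2KO cDC1 arrays also shared no run of 6 columns. Mean raw intensity per array was 265 to 292 in WT and 172 to 228 in Mbd2KO cDC1s. Before correction and scaling, raw Abcg1 intensity averaged 116 in WT and 107 in Mbd2KO cDC1s, the opposite direction. Apoc1 differed by 0.67 (95% interval 0.16 to 1.18, adjusted p = 0.0909). WT cDC1s were above background for Apoc1 on 0 of 2 arrays, so the gene entered the comparison through the Mbd2KO arrays alone. Its direction therefore carries no weight. The Mbd2KO mean was 1.30-fold above the lowest signal above background on the WT arrays, a figure that leaves out the spread between arrays. Raw Apoc1 intensity, before correction and scaling, averaged 89.4 in WT and 91.8 in Mbd2KO cDC1s. The second Apoc1 probe, above background on none of these arrays, differed by 0.05. The Abcg1 difference turned on single WT arrays: it was 1.05 and called without array 26 (adjusted p = 0.0355), and 0.53 without array 23 (adjusted p = 0.417), each time with a lone WT array assumed to vary like the others. Under median scaling it was 0.30 (adjusted p = 0.634). Markers of some other cells separated the genotypes in the same direction on these arrays, where 32% of all genes tested did not overlap either. Plasma and B cell, eosinophil and adipocyte markers did so at low signal. T cell, fibroblast, epithelial and endothelial markers overlapped between the genotypes. Summed signal in WT and Mbd2KO cDC1s was 2680 to 2809 and 3088 to 6005 for macrophage markers, 6690 to 6893 and 7818 to 9885 for monocyte markers, and 616 to 720 and 1085 to 2739 for neutrophil markers. Abcg1 and Apoc1 were both higher in macrophages and monocytes than in cDC1s, and the part of these markers in their cDC1 differences was not tested. Of the 7 tested members, 2 (Apoc1 and Abcg1) had an unadjusted p under 0.05, as did 25.8% of all genes tested. The other tested members had adjusted p values of 0.294 or more.

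**Figure D3:**
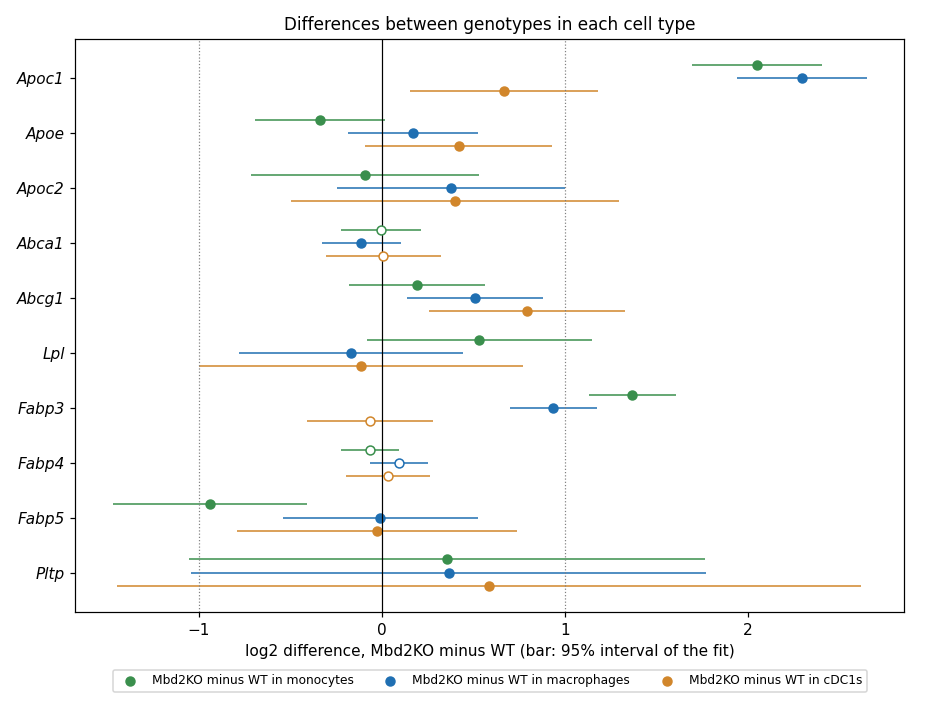
Points give the log2 difference of Mbd2KO minus WT for each gene in each cell type, and bars give the 95% interval of the limma fit; open points were not tested, and dotted lines mark differences of 1. Apoc1 lies near 2 in monocytes and macrophages and at 0.67 in cDC1s, Fabp3 at 1.37 and 0.94, and Fabp5 at -0.94 in monocytes.

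The genes annotated next to Apoc1 were set beside it. Of the 10 nearest genes on each side in RefSeq order, 15 of 20 had a probe. None was called between genotypes in monocytes (13 tested), macrophages (14 tested) or cDC1s (12 tested). Over all genes tested, 0.309%, 1.13% and 0.800% were called higher in Mbd2KO in these cell types, and 0.142%, 0.152% and 0.985% lower. At such shares, the lack of a call among so few genes says little about the locus. In each cell type 1 neighbour passed the p threshold, as did 2.49%, 7.18% and 8.81% of all genes tested. Apoc4, the immediate neighbour, had the next largest gap: above background on 1 of 5 WT and 5 of 5 Mbd2KO monocyte arrays, it differed by 0.87 (SE 0.21) in monocytes without overlap and by 0.60 (SE 0.21) in macrophages with overlap. Nectin2, a cell adhesion receptor further along, differed by 0.57 (SE 0.17) in monocytes, 0.56 (SE 0.17) in macrophages and 0.85 (adjusted p = 0.0328) in cDC1s, all under the size limit. Relb, Clasrp and Clptm1, which code for an NF-kB subunit, a splicing factor partner and a membrane protein, differed by 0.12 or less in monocytes. Bcl3, an NF-kB cofactor, had values of -0.20 in monocytes and -0.50 in macrophages. Between cell types, Bcl3 was called lower in cDC1s than in macrophages (-1.53) and monocytes (-2.53), and Zfp296 was called higher in cDC1s than in monocytes (1.05).

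**Figure D4:**
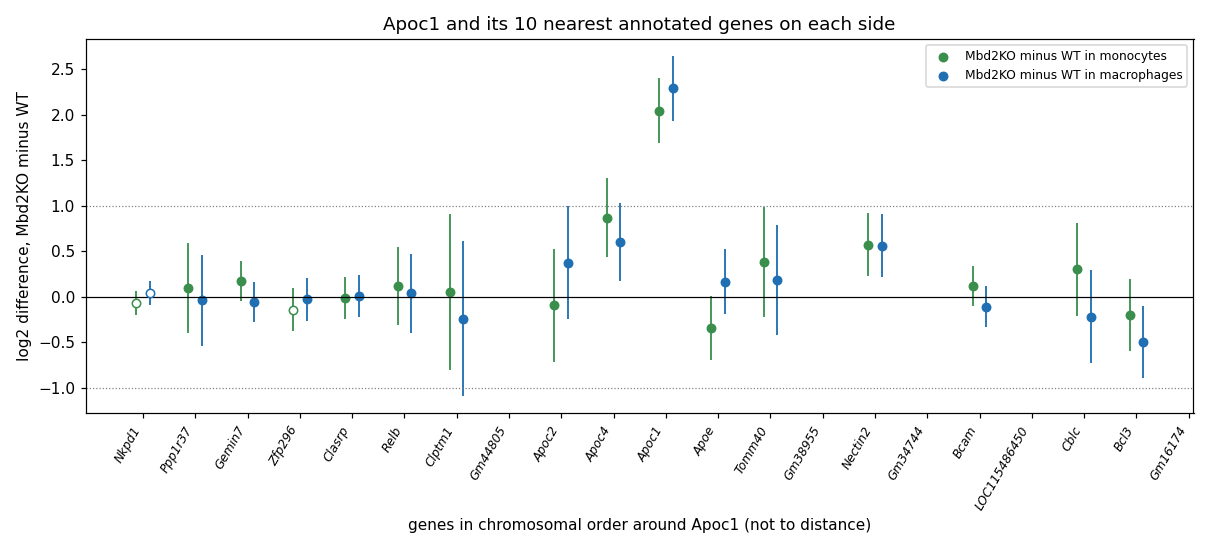
Genes stand in chromosomal order around Apoc1 along the horizontal axis, without scale, and points give the log2 difference of Mbd2KO minus WT in monocytes and macrophages with the 95% interval of the limma fit; open points were not tested and genes with no point had no probe. Apoc1 stands at 2.05 and 2.29, Apoc4 at 0.87 and 0.60, and Apoe and Apoc2 lie between -0.34 and 0.38.

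The wider lipid pathways were read from 4 lists. Of 18 genes of cholesterol efflux and LXR signalling, 17 were tested between macrophages and monocytes and 4 were called higher in macrophages: Ch25h (1.60), which makes the oxysterol 25-hydroxycholesterol, the lysosomal acid lipase gene Lipa (1.41), Nr1h3, which codes for LXR alpha (mean log2 intensity 9.18 in monocytes and 10.28 in macrophages), and the cholesteryl ester hydrolase gene Nceh1 (1.02, called in 27 of 37 settings). None was called lower. Of all genes tested there, 2.61% were called higher and 2.24% lower. In cDC1s against macrophages, 6 of 17 were called lower, beside 8.91% of all genes tested. Nr1h3 had the largest difference, at -4.56 (SE 0.20, adjusted p = 3.55e-14), followed by Nceh1 (-2.43), Lipa (-2.31), Ch25h (-2.17) and Npc1 (-1.77), which exports cholesterol from lysosomes. Against monocytes, 4 were called lower in cDC1s, namely Nr1h3 (-3.46), Nceh1 (-1.42), and Arl4c and Smpdl3a (both -1.18), beside 9.00% of all genes tested. Between genotypes none of the 17 was called in any of the 3 cell types. There 0.309% to 1.13% of all genes tested were called higher and 0.142% to 0.985% lower. In cDC1s 4 of them passed the p threshold under the size limit, with Rxra (0.57), Rxrb (0.65) and Npc1 (0.59) higher and Smpdl3a (-0.77) lower in Mbd2KO. Over all genes tested in cDC1s, 8.81% passed the p threshold.

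**Figure D5:**
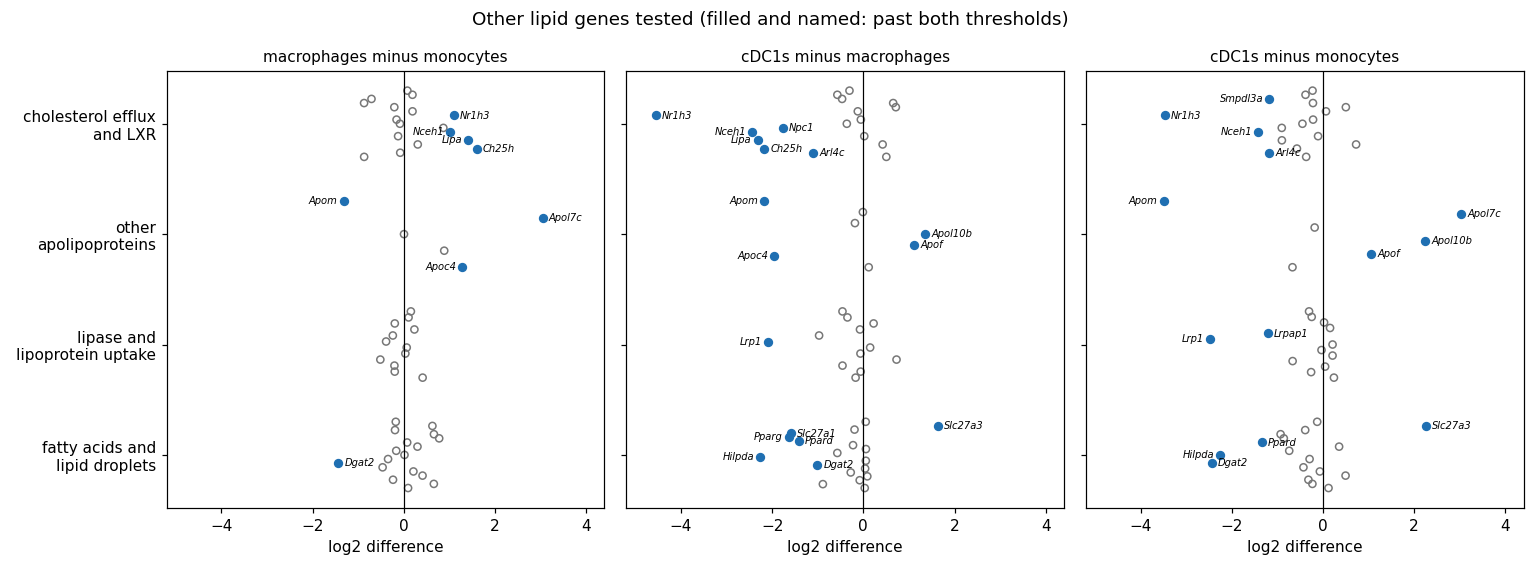
Each point is a tested gene of 1 of 4 lipid gene lists, with its log2 difference between cell types on the horizontal axis; filled and named points passed both thresholds, and vertical position within a list carries no meaning. Cholesterol genes called between macrophages and monocytes all lie to the right, and those called in cDC1s all lie to the left.

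Other apolipoproteins were mostly undetected. Of 25 listed, 21 had a probe and 5 to 7 were tested in any comparison. Apol7c was 3.05 higher in macrophages than in monocytes (adjusted p = 6.99e-13) and 3.04 higher in cDC1s than in monocytes. Apom, which carries sphingosine-1-phosphate, fell in the order of monocytes, macrophages and cDC1s, with a difference of -1.32 between the first pair and -2.18 between the second. Apol10b was called higher in cDC1s than in macrophages (1.35) and monocytes (2.24), as was Apof (1.11 and 1.06, but 0.39 and 0.37 without background correction). Apoc4 was above background on no cDC1 array and at least 3.03-fold lower there than in macrophages. No other apolipoprotein was called between genotypes, where 0.309% to 1.13% of all genes tested were called higher and 0.142% to 0.985% lower.

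Of 18 genes of lipoprotein lipase control and lipoprotein uptake, 12 or 13 were tested. None was called between macrophages and monocytes, where 2.61% of all genes tested were called higher and 2.24% lower. None was called between genotypes either, where the shares were 0.309% to 1.13% higher and 0.142% to 0.985% lower. The endocytic receptor gene Lrp1 was lower in cDC1s than in macrophages (-2.08) and monocytes (-2.47), and its chaperone Lrpap1 was lower in cDC1s than in monocytes (-1.21). Lmf2, Lmf1 and Lrp1 passed the p threshold between genotypes in cDC1s under the size limit, at 0.81, 0.58 and 0.87, as did 8.81% of all genes. Lrp1 was among the genes higher in macrophages, whose markers were higher in every Mbd2KO cDC1 array than in the WT ones, and their part in its difference was not tested. Of 30 genes of fatty acid binding, activation and lipid droplets, 16 to 18 were tested. Dgat2, which completes triglyceride synthesis, was lower in macrophages than in monocytes (-1.44, adjusted p = 3.04e-12) and lower again in cDC1s (-1.01 against macrophages, a call that held in 25 of 36 settings). Hilpda, an inhibitor of the lipase ATGL, was lower in cDC1s than in macrophages (-2.26) and monocytes (-2.25), Ppard was lower too (-1.42 and -1.34 in the same order), and Pparg (-1.63) and Slc27a1 (-1.59) were called lower against macrophages. The acyl-CoA synthetase gene Slc27a3 was higher in cDC1s than in macrophages (1.63) and monocytes (2.26), and was called higher in Mbd2KO than in WT cDC1s (1.29, adjusted p = 0.0178), with overlapping arrays. That call was lost without WT array 23 (0.68, adjusted p = 0.334), without Mbd2KO array 30 (0.86, adjusted p = 0.0771) and under median scaling (0.61, adjusted p = 0.243), and held in 27 of 35 settings.

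Plin2, which coats lipid droplets, was the only gene of these lists called between genotypes in macrophages. There 1.13% of all genes tested were called higher and 0.152% lower. Plin2 was past both thresholds in 33 of 35 settings. Its mean was 7.99 in WT and 9.60 in Mbd2KO macrophages, a difference of 1.60 (SE 0.35) without overlap, and 8.52 and 9.41 in monocytes, a difference of 0.89 (SE 0.35), also without overlap. Of all genes tested, 5.12% did not overlap between genotypes in monocytes and 5.22% in macrophages. In cDC1s Plin2 differed by -0.33 (SE 0.51). As with Fabp3, these are values of the contrasts that chose Apoc1 and are given as a description.

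The genes most like Apoc1 over the 25 arrays were found among 11956 genes above background on at least 13 arrays. The highest correlations of log2 intensity were with Arg1 (r = 0.93), Rdh11 (0.92), Mgst1 (0.91), Ift172 (0.90) and Irf2 (0.90). These arrays fall into 6 groups, and such values mostly follow the group means. Of the members, Fabp3 (r = 0.83) ranked 80 and Apoc2 (0.81) ranked 146, followed by Abcg1 (0.69) and Apoe (0.47). For deviations from the group means, the highest were Tm9sf4 (0.81), Ampd3 (0.80), Prtn3 (0.80), Tmem25 (0.79) and 4933432P15Rik (0.77). No member came near these: they lay between -0.50 (Lpl) and 0.07 (Apoe).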

How the data were processed

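RNA from sorted colon cells was hybridised to Illumina MouseWG-6 BeadChips. The authors deposited raw probe intensity in a single table, with a detection p-value per probe and array, which is the share of negative control probes as bright as the probe. Their processing notes name lumi and limma, with versions not given in the sources used here. The 25 colon arrays were used; spleen T cell arrays were not analysed here, and 3 signal columns that match no sample were not used.

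In R 4.3.3 with limma 3.58.1 and data.table (version 1.17.8), intensity was background-corrected (normexp, negative controls inferred from the detection p-values, offset 16), quantile normalized and put on the log2 scale. A linear model with 1 mean per group was fitted over all probes with empirical Bayes moderation. The p-values were adjusted by Benjamini-Hochberg over the probes tested in each comparison. A probe entered a comparison only if the number of arrays with a detection p under 0.05 reached the size of its smaller group. A gene was represented by its tested probe of highest mean intensity. Called means an adjusted p under 0.05 and a log2 difference of at least 1. Where no array of a group had a probe above background, the fold is a lower bound against the lowest signal above background, or the probe's own where that is higher. No member probe's sequence was checked against other genes. Figures were drawn with matplotlib 3.10.9. The model was tested on simulated data.

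Members and gene lists were chosen with earlier results of these data known. Every member is named, and of the other lists each called gene up to 5 per direction and comparison by size; genes named for passing only the p threshold were chosen after their values were seen. The number of arrays limits the precision. Nothing in the labels says that arrays of a group come from separate mice in every case, so p-values measure the spread between these samples. The paper states that replicates came from separate experiments. The labels do not tie arrays to experiments, so experiment was not modelled and its balance over groups is unknown. Other background corrections, scalings, filters, blocks and left-out arrays were tried; use of the 936 negative control probes listed in the table was added after seeing the data.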

Additional observations from a re-analysis of the deposited data

Results flagged for a closer look

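In 40 pairs of a member and a group of 5 arrays, 3 arrays stood apart from the rest by Dixon's criterion, which chance meets in about 1 of 20 groups. Apoc2 on WT macrophage array 12 read 6.05, and the nearest of the other WT macrophage arrays read 7.81. Abca1 on WT monocyte array 2 read 4.60, with the nearest array at 4.33, and was the only monocyte array above background for this gene. Fabp4 on WT macrophage array 11 read 4.38, with the nearest array at 4.23, and was not above background.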

How the results depend on the processing

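No called difference of a member or named gene changed direction under the alternatives run. The uncalled Abcg1 difference between macrophages and monocytes was -0.06 in WT arrays alone and 0.26 in Mbd2KO arrays alone. The counts of members called between cell types (4, 6 and 6) stayed within 1.5 times throughout. Between genotypes in monocytes, 2 members were called, and 1 was with no background correction or with an offset of 50, where the Fabp3 difference was 0.51 and 0.74. Leaving out 1 array gave 2 to 3, with Fabp5 added without WT monocyte 4 or 5 or Mbd2KO monocyte 6 or 10. In macrophages 1 was called, and 2 were under median scaling, cyclic loess, each cell type normalized alone or no minimum difference, since Fabp3 lies near the limit; leaving out 1 array gave 1 to 2, with 2 without WT macrophage 12 or Mbd2KO macrophage 20. In cDC1s 0 were called, 1 (Apoc1, at 1.03, with WT arrays at background) was under cyclic loess, and leaving out 1 array gave 0 to 1, with Abcg1 called without WT array 26. Called pathway genes numbered 41, against 27 without background correction and 102 with no minimum difference. Among the Apoc1 neighbours 0 were called between genotypes, 3 with no minimum difference, and 0 to 1 when 1 array was left out, with 1 without Mbd2KO monocyte 9, WT cDC1 23, WT cDC1 26 or Mbd2KO cDC1 30. The Apoc1 genotype difference ranged from 1.75 to 2.15 in monocytes, 1.40 to 2.41 in macrophages and 0.24 to 1.03 in cDC1s. The cause of these changes was not tested.

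Scaling moved the balance of all calls. Under median scaling the median over all genes shifted to -0.33 for cDC1s minus macrophages, -0.31 for cDC1s minus monocytes, -0.28 for genotype in monocytes and -0.36 for genotype in cDC1s, and the share of calls that were higher went from 43.7% to 17.1%, 46.5% to 21.2%, 68.5% to 31.1% and 44.8% to 1.53%. For genotype in macrophages it went from 88.1% to 69.6%. Without background correction it was 93.8% for genotype in monocytes.

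No paired analysis was possible because the groups compared share no replicate numbers, and nothing in the labels ties numbers that differ by 10 or arrays of a run of 6 columns. Taken as random blocks all the same, these had a correlation of 0.06 and 0.02; the counts of members called under either were those reported. Low signal over background limits Abca1, Fabp3, Fabp4 and the cDC1 levels of Apoc1, Apoc2 and Fabp5.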
